A study of Mus musculus with 20 samples.

Results

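Control skin of 700-day-old mice was set against control skin of 50-day-old mice, gene by gene. The comparison used 9 of the 20 samples of the series and 2 of the 6 group columns of its deposited table. Both groups held whole skin with the genotype Sod2+/+ from mice of the inbred strain C57BL/6, that is, with the mitochondrial superoxide dismutase gene intact. The 50-day group held 5 samples and the 700-day group 4. The other columns held control skin at 100 days (n = 2) and 300 days (n = 3) and skin of a conditional Sod2 knockout (genotype Sod2-/-) at 100 and 300 days (n = 3 each). They carry another title prefix in the labels and serve here only as context, as values without a ratio. The labels give no sex, no body site and no hair cycle stage, and do not say whether the samples of a group were collected at the same time.

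Levels are in FPKM, that is, sequenced fragments scaled to gene length and to library size, with 1 value per gene and group made by the authors. A single value per group carries neither a spread over samples nor an error, so no difference below has a test, and the read depth is unknown. The measure was the log2 ratio of (FPKM + 1), 700 over 50 days, so a positive ratio means a higher value at 700 days. The added 1 understates the difference of low genes. Pairs of levels are given as the value at 700 days against that at 50 days, with the log2 ratio in brackets after them. Ratios with a size of at least 1 were counted, and only such genes are called higher or lower. Of 19258 named genes, 12136 averaged 1 FPKM or more across the 6 groups and are called measured. Among these 71 (0.585%) were higher at 700 days and 394 (3.25%) lower. These shares are the background for each count below. The median ratio over all of them was -0.03, with an interquartile range of -0.24 to 0.13.

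Mammalian skin is built of layers with their own gene programmes. Basal keratinocytes of the epidermis divide and move upwards, switch their keratins and end as dead cornified cells sealed by crosslinked envelope proteins and lipids. Hair follicles grow down from the epidermis and pass through cycles of growth and rest, and the dermis around them is made of collagen and elastic fibres laid down by fibroblasts. Beneath the dermis of mice lie a fat layer and a sheet of skeletal muscle, the panniculus carnosus. Aged tissue is known to gather cells that have left the cell cycle for good, and the gene Cdkn2a is widely used as their marker.

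Among the genes placed in lists, those higher came most often from the epidermis, and those lower were spread over muscle, hair follicle, fat, dermis and macrophages. Of 241 genes of the epidermal lists 28 were higher and 11 lower. In the hair follicle lists 34 of 145 genes were lower and 1 higher, in the skeletal muscle lists 57 of 67 were lower, in the fat lists 21 of 109, and in the dermal lists 19 of 165 with 2 higher. Genes in no list made up 10564 of those measured, with 28 higher and 217 lower. Most differences were small in size. Ratios between 1 and 2 made up 51 of the higher and 280 of the lower genes, and ratios of 3 or more 9 and 56. Just inside the size counted lay Lce1d (1.02) and Klhl33 (-1.003), and just outside it Rnase12 (0.999) and Nnmt (-0.998).

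**Figure D1:**
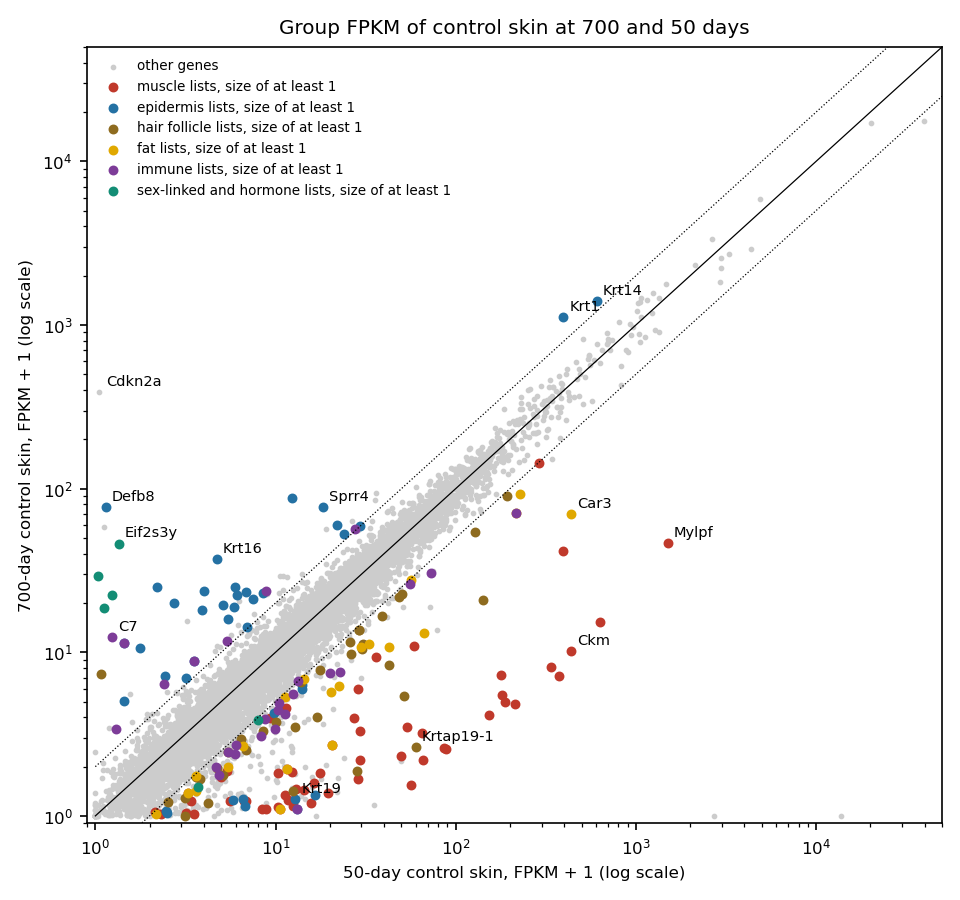
Group FPKM + 1 of each gene in control skin at 50 days (x axis) and 700 days (y axis), both on log scales, with 1 point per gene. Coloured points are members of the named groups of lists with a ratio of at least 1 in size, the solid line marks equal values and the dotted lines a ratio of 1 in size. Cdkn2a stands alone at the upper left with 387 FPKM at 700 days, and the skeletal muscle genes form the band at the lower right.

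Several transcripts set limits on the reading of this pair of columns. The 4 Y-linked genes measured were near 0 at 50 days and not at 700 days. Eif2s3y was 45.1 against 0.347 FPKM, Uty 28.3 against 0.033 FPKM, Ddx3y 21.5 against 0.243 FPKM and Kdm5d 17.6 against 0.12 FPKM. The row that holds Xist, the RNA of the inactive X chromosome, together with a pair of small predicted genes went the other way, at 2579.8 FPKM at 50 days and 3.69 at 700 days. Of 7 genes of the X-inactivation centre or known to escape X inactivation none was counted and 5 were below 0, among them Kdm6a at 17.5 against 27.1 FPKM and Eif2s3x at 24.2 against 38.7 FPKM. In the context columns, the Xist row was 1141 and 2187 FPKM in control skin at 100 and 300 days. In the knockout it was 4.92 and 17.2 FPKM at these ages. Summed over the Y-linked list, control skin held 0.154 and 0.106 FPKM at 100 and 300 days. Values given below for the context columns thus carry a sex-linked difference too. Age and the sex-linked difference cannot be told apart between the 2 columns compared. The part of either in any result below was not tested. Without the Y-linked genes and the skeletal muscle lists, 67 genes were higher and 337 lower.

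An exact 0 in this table can be a failed estimate. Rn7sk, Malat1, Ahnak and Flg2 are listed at 0 in both columns and are between 273 and 68056 FPKM in each of the other 4 groups. Lars2 and mt-Rnr1 are listed at 0 at 700 days, against 2711 and 13775 FPKM at 50 days. No fold is given for a gene listed at 0 in a column. Leaving out all such genes left 70 higher and 385 lower.

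Cdkn2a had the highest ratio of all genes measured. It encodes p16, an inhibitor of the kinases Cdk4 and Cdk6, and p19Arf, a stabiliser of p53, from different first exons on 1 locus. Its level was 0.0545 FPKM at 50 days and 387 FPKM at 700 days, a log2 ratio of 8.52. The other groups held 0 FPKM (listed at 0, control, 100 days), 0.178 (control, 300 days), 1.44 (knockout, 100 days) and 3.45 (knockout, 300 days). The 700-day column thus stood alone, far above the other 5. A gene-level value does not separate p16 from p19Arf, and a group value does not show how many of the 4 samples carried it.

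The neighbours of Cdkn2a did not share this difference. In the GRCm38 assembly Cdkn2a lies on chromosome 4 from 89274471 to 89294653 on the minus strand. Cdkn2b, which encodes the related inhibitor p15 and lies from 89306299 to 89311039, was 7.99 against 4.93 FPKM (log2 ratio 0.60). Mtap, a methionine salvage enzyme gene on the other side from 89137122 to 89181081, was 3.27 against 3.07 FPKM (log2 ratio 0.07). The 2 start regions that RefSeq gives for Cdkn2a (GRCm38.p6, minus strand), each from 250 bases before to 50 after a start, are shown because this gene has the highest ratio and because p16 and p19Arf start apart. They lie at chr4:89294570-89294869 and chr4:89282143-89282442.
Cdkn2a start region 1: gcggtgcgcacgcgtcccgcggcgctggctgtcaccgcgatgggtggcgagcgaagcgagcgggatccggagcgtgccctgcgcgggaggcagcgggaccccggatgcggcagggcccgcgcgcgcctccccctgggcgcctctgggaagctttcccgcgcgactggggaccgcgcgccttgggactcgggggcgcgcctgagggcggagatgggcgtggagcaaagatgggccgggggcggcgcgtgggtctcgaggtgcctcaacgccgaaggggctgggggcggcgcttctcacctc
Cdkn2a start region 2: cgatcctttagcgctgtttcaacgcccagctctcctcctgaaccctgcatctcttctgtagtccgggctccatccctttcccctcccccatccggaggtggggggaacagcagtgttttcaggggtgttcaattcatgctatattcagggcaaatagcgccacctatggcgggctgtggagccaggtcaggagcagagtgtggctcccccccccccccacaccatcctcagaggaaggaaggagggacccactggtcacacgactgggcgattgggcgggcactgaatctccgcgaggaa
Neither window holds the letters TGANTCA, where N is any base. These letters cover the core of the site bound by AP-1 factors such as JunB, which the series title names. This says only that these letters are not in these windows.

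The rest of the growth arrest genes did not go with Cdkn2a. Of 7 CDK inhibitor genes only Cdkn2a was counted, and Cdkn1a, which encodes p21, was 77 against 82.8 FPKM (log2 ratio -0.10). Cdkn1c, which encodes p57, had the lowest ratio of the list, at 1.5 against 2.9 FPKM (-0.65). Of 22 p53 target genes none was counted (median -0.08, or 0.02 with the columns scaled to equal totals), with Mdm2, the ubiquitin ligase that degrades p53, at 35.7 against 32.4 FPKM. Of 30 factors secreted by senescent cells only the collagenase gene Mmp13 was counted, listed at 0 at 50 days and at 1.44 FPKM at 700 days. Ereg, an epidermal growth factor relative, was 25.7 against 13.1 FPKM (0.92), the stromelysin gene Mmp3 6.51 against 3.81 FPKM and Igfbp7 29.6 against 51.3 FPKM (-0.77). The median of that list was 0.08. None of 39 cell cycle genes was counted and 25 were below 0. The proliferation marker Mki67 was 14.3 against 18.5 FPKM and the mitotic kinase Cdk1 5.61 against 10.9 FPKM, while the cyclin Ccnd2 was 59.6 against 40.4 FPKM. Lmnb1, the lamin whose loss marks senescent cells in culture, was 7.39 against 5.6 FPKM (0.35).

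The AP-1, immediate early, IGF and TGF-beta lists held no counted gene. None of 9 AP-1 subunits was counted, and their ratios ran from -0.26 for Batf to 0.59 for Fos. Junb itself was 30.2 against 27.8 FPKM (0.11). Of 20 other immediate early genes, which also respond to tissue handling, none was counted and 13 were above 0 (median 0.13). Of 18 genes of the insulin-like growth factor pathway none was counted and 14 were below 0. The ligand Igf1 was 5.66 against 11.6 FPKM (-0.92), while the receptor Igf1r was 19.7 against 19.9 FPKM. Of 21 TGF-beta pathway genes none was counted (median -0.09, or 0.01 with equal totals).

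Keratinocyte genes were the largest listed group among the higher genes. The median of all epidermal list members was 0.16, against -0.03 over all genes. The list medians were 0.09 for 17 basal genes, 0.31 for 16 spinous genes and 0.51 for 31 granular and cornified envelope genes, and 0.10 for 20 cornification enzymes and proteases. In the basal list only Krt14, the type I keratin of the basal layer, was counted, at 1391 against 604 FPKM (1.2). Its partner Krt5 was 1564 against 1248 FPKM (0.33) and the basal integrin Itga6 122 against 118 FPKM. In the spinous list Krt1 was 1112 against 395 FPKM (1.49) and Krt2 9.63 against 0.767 FPKM (2.59), while Krt10, the partner of Krt1, was 3338 against 2643 FPKM (0.34). In both of these pairs 1 member was counted and its partner was not.

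The cornified envelope genes had the most members counted of the epidermal lists. Of 31 measured, 10 were higher, none lower, and 26 were above 0. Of these, 6 belong to the Lce1 group of late envelope proteins, which lie side by side on chromosome 3 from 92620081 to 93019060. Lce1g was 18.3 against 4.09 FPKM, Lce1k 21.5 against 5.13 FPKM, Lce1j 17.9 against 4.85 FPKM and Lce1e 22.2 against 7.47 FPKM. In that stretch 15 of 16 Lce genes were above 0, and their summed level was 964 FPKM at 50 days and 1247 at 700 days. The most abundant differed less, as with Lce1m at 355 against 385 FPKM. Next to them lie the Sprr genes, small proline-rich envelope proteins, of which 3 of 4 were higher: Sprr4 at 76.4 against 17.3 FPKM, Sprr2h at 4.06 against 0.435 FPKM and Sprr1b at 6.15 against 1.44 FPKM. The filaggrin relative Hrnr was 59.1 against 20.9 FPKM (1.46) and Flg itself 365 against 230.3 FPKM (0.66), while loricrin (Lor) was 82.5 against 65.7 FPKM and involucrin (Ivl) 65.7 against 74.1 FPKM. Lce and Sprr genes are near copies of each other, and how their reads were split is unknown.

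Keratins and peptides that keratinocytes make when injured or inflamed had some of the largest ratios. Krt16 was 36 against 3.71 FPKM (2.98) and Krt6b 19 against 1.72 FPKM (2.88). Their relatives Krt6a and Krt17 were 102 against 59.4 FPKM (0.77) and 539 against 414 FPKM (0.38). Reads of Krt6a and Krt6b can be hard to tell apart. S100a9 and S100a8, the chains of calprotectin, were 10.4 against 0.448 FPKM (2.98) and 7.88 against 2.54 FPKM (1.33). Both are also neutrophil genes. None of the other neutrophil genes measured was counted as higher, with Lcn2 at 1.01 against 2.11 FPKM and Ltf at 0.102 against 12.2 FPKM, and 9 of the 15 on that list were below the filter. None of the other S100 genes was counted, with S100a6 at 267 against 227 FPKM and S100a1 at 19.6 against 37.8 FPKM.

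Of 14 defence peptide genes 2 were higher and 2 lower. Defb8, a beta-defensin, was 76.1 against 0.139 FPKM (6.08), next to Cdkn2a the highest ratio of all genes. In the other columns it was listed at 0 in both control groups and stood at 18.6 and 373 FPKM in the knockout at 100 and 300 days. Defb8 was thus near 0 in the columns with a high Xist row and well above 0 in those with a low one. The part of the sex-linked difference in this was not tested. Defb14 was 15.1 against 4.47 FPKM (1.55) and Defb6, the most abundant defensin, 404 against 259 FPKM (0.64). Against this, Retnla was 0.34 against 15.6 FPKM (-3.63) and Wfdc18 3.24 against 8.84 FPKM (-1.22). Slurp1 and Slurp2, small secreted ligands of acetylcholine receptors made by keratinocytes, were 22.4 against 5.87 FPKM and 23.9 against 1.19 FPKM. Among the other Ly6 family genes only Ly6g6d was counted, as lower, at 4.93 against 12.9 FPKM.

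Some protease inhibitors of the upper epidermis were higher. In the stefin A cluster of cysteine protease inhibitors on chromosome 16 from 36119946 to 36455392, 3 of 5 genes were higher. BC100530 was 86.7 against 11.4 FPKM, Stfa3 22.8 against 3.0 FPKM and Stfa1 17.2 against 2.91 FPKM, while Csta1 was 175 against 119 FPKM and Stfa2 1.35 against 1.37 FPKM. These are near copies too. Serpinb12 was 20 against 6.51 FPKM (1.49), the 1 counted of 6 Serpinb genes measured in its cluster on chromosome 1, all of which were above 0. A row shared by Serpinb3b and Serpinb3c, outside the counts, was 18.1 against 6.19 FPKM (1.41). Of the kallikreins, which cut the bonds between cornified cells, Klk6 was 23.9 against 4.98 FPKM (2.06) and the more abundant Klk7 274 against 270.0 FPKM (0.02). The transglutaminases that crosslink envelopes, Tgm1 and Tgm3, were 27 against 21.1 FPKM and 5.96 against 4.5 FPKM, and the stromal one, Tgm2, was lower at 5.34 against 13 FPKM (-1.14).

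The structural and lipid genes of the barrier differed little and mostly in one direction. Of 30 barrier lipid genes none was counted and 26 were above 0 (median 0.21), with the lipid transporter Abca12 at 108 against 82.5 FPKM and the lipoxygenase Alox12b at 29.8 against 24.6 FPKM. Of 29 desmosome and junction genes none was counted and 20 were above 0, with desmoplakin (Dsp) at 1789 against 1472 FPKM and plakophilin 1 (Pkp1) at 234 against 163 FPKM. Dsg4, the desmoglein of the hair shaft, lay lowest in that list at 3.06 against 6.56 FPKM (-0.90).

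**Figure D2:**
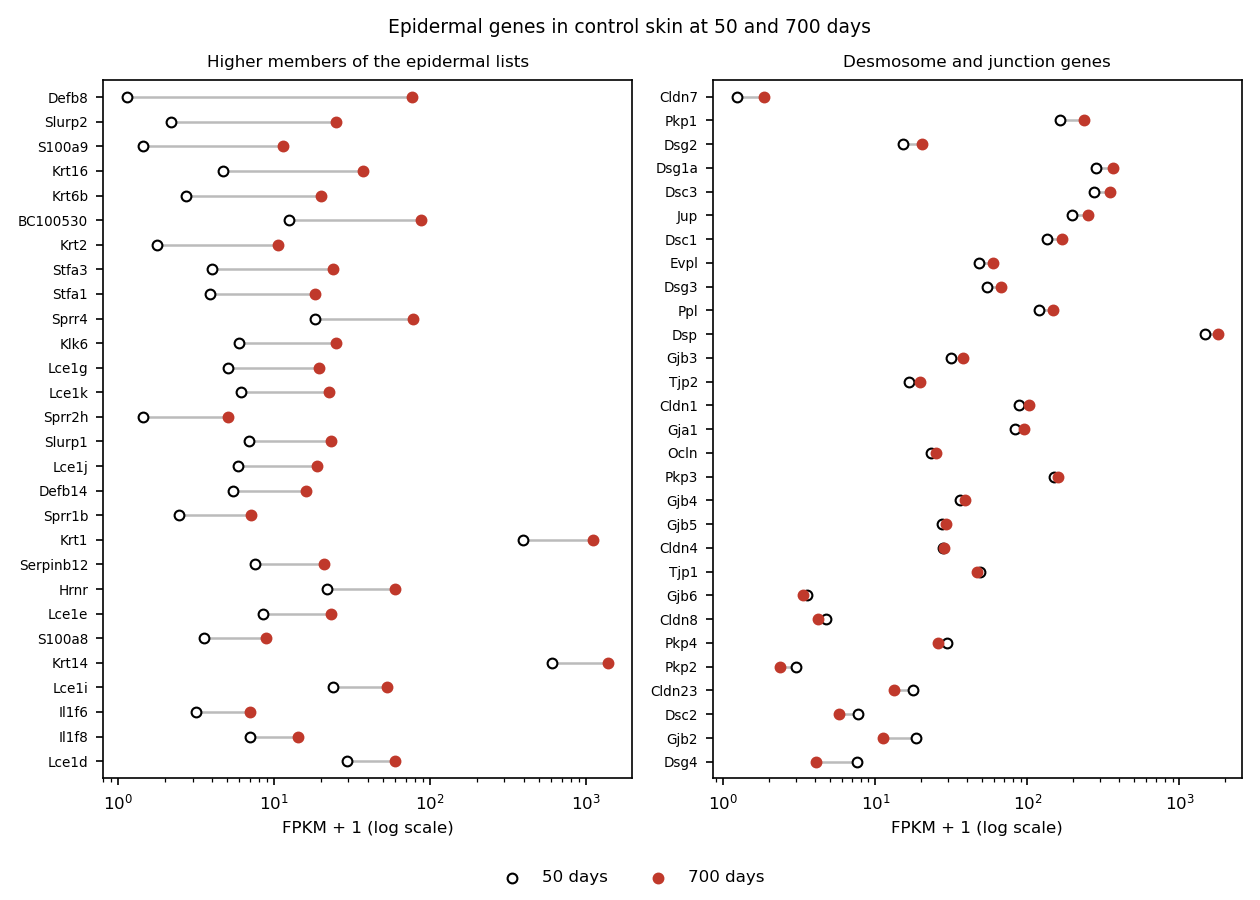
FPKM + 1 (log scale) in control skin at 50 days (open circles) and 700 days (filled circles), for the 28 higher members of the epidermal lists (left) and all 29 desmosome and junction genes (right), ordered by ratio. The higher genes at left range from Defb8 (ratio 6.08) to Lce1d (1.02), while the circles of the junction genes nearly touch.

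Genes of the IL-1 family and of pyroptosis were among the higher ones. Of 16 IL-1 family genes 2 were higher and none lower. Il1f6 and Il1f8, older names of the cytokines IL-36 alpha and IL-36 beta, were 6.0 against 2.18 FPKM (1.14) and 13.2 against 5.98 FPKM (1.03). In the family's cluster on chromosome 2 all 6 genes measured were above 0, while Il1b was 1.59 against 1.7 FPKM and the receptor Il1rl2 60.7 against 60.8 FPKM. In a list of 13 inflammasome and pyroptosis genes, written after values had been seen, 3 were higher and none lower (median 0.32). Casp1, the protease that activates IL-1, was 22.7 against 7.82 FPKM (1.42), its neighbour Casp4 55.5 against 26.7 FPKM (1.03) and Gsdmc, a pore-forming gasdermin, 5.44 against 1.39 FPKM (1.43). Il18 was 68.1 against 54.3 FPKM (0.32) and Gsdmd 2.01 against 2.18 FPKM (-0.08). Ifnk, the interferon of keratinocytes, was 3.18 against 1.05 FPKM (1.03), with no matching difference in the interferon response list described further on.

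The start regions of 3 higher genes are shown because the series title names JunB and because they hold the letters TGANTCA. Sprr1b and Serpinb12 come from the epidermal lists, and Mmp13 is the collagenase gene listed at 0 at 50 days. Here and in the counts below N is any base. The usual AP-1 core has C or G there, as only the Mmp13 window does among those shown. RefSeq windows of 300 bases existed for 48 of the 71 higher genes, and 8 of them (16.7%) held the motif. Among the 28 higher epidermal genes the count was 5 of 20 (25%), among the lower genes 29 of 279 (10.4%), and among all genes tested 637 of 9285 (6.86%). With any base at N, the motif reads the same on both strands. In the windows below it is in capitals: Sprr1b (chr3:92438730-92439029, minus strand), Serpinb12 (chr1:106934199-106934498, plus strand) and Mmp13 (chr9:7272264-7272563, plus strand), all in GRCm38.p6.
Sprr1b: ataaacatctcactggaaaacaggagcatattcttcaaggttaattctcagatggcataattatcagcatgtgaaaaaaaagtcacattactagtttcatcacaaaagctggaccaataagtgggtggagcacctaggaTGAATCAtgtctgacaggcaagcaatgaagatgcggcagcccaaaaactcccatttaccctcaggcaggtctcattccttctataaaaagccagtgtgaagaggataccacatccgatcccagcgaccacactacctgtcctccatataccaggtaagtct
Serpinb12: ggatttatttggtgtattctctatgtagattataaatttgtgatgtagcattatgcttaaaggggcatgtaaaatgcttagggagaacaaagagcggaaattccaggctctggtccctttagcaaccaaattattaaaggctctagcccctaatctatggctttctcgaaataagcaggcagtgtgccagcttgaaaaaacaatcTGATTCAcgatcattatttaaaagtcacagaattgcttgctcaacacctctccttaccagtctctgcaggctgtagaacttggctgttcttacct
Mmp13: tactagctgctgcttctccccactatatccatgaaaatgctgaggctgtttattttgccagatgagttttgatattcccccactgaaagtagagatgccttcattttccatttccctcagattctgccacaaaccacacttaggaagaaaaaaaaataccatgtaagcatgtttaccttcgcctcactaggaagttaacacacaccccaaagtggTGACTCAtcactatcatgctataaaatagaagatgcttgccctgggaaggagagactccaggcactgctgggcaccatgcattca
The motif starts 111, 45 and 35 bases before the start of transcription in Sprr1b, Serpinb12 and Mmp13. RefSeq gives a further window for Serpinb12, at chr1:106938707-106939006, which does not hold the motif. In the counts above, a gene held the motif where any of its windows did. Such a match describes letters and does not show binding.

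Genes of the growing hair were lower in part and mostly below 0. Of 15 hair shaft keratins 5 were lower, with none higher (median -0.92), led by Krt35, an early keratin of the shaft cortex, at 3.0 against 16.1 FPKM (-2.1). Krt33a, Krt83 and Krt82 were also lower, at 15.6 against 38.1 FPKM, 12.6 against 28.1 FPKM and 0.954 against 3.7 FPKM, while the tongue and nail keratin gene Krt84 was 4.36 against 3.4 FPKM. Of 14 inner root sheath genes 2 were lower, Krt28 at 21.8 against 49.1 FPKM and Krt73 at 12.6 against 28.2 FPKM, and 13 were below 0. Trichohyalin (Tchh), a sheath matrix protein, was 76.8 against 90.4 FPKM. Summed over the hair shaft keratins, control skin held 220 FPKM at 50 days, 109 at 700, 842 at 100 and 725 at 300 days. For the inner root sheath genes the sums were 773, 515, 1621 and 2558 FPKM at 50, 700, 100 and 300 days. The labels give no hair cycle stage, and its part in the hair results was not tested.

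The keratin-associated proteins, which cement keratin filaments in the shaft, lie in clusters and had many lower members. Of 50 measured, 18 were lower, 1 higher and 44 below 0 (median -0.79). Over the whole list, control skin held 1174 FPKM at 50 days, 498 at 700, 3092 at 100 and 1795 at 300 days. On chromosome 16, from 88610705 to 89571183, 14 of 23 were lower, and the summed level was 923 FPKM at 50 days and 339.9 at 700 days. On chromosome 11, from 99550130 to 99993994, 2 of 20 were lower (median -0.46, against -1.18 on chromosome 16). The Krtap19 genes, rich in glycine and tyrosine, were lowest. Krtap19-1 was 1.64 against 58.9 FPKM (-4.5), Krtap19-4 0.882 against 27.3 FPKM and Krtap19-5 19.9 against 141 FPKM. Within the same stretch Krtap20-2 went the other way, at 6.41 against 0.0775 FPKM (2.78). Members of these families are near copies of each other.

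Signals and regulators of hair growth were lower in part. Lef1, the Wnt effector of the hair matrix and dermal papilla, was 2.77 against 9.04 FPKM (-1.41), and Gprc5d, a receptor of the shaft, 5.6 against 12.8 FPKM. In the list of FGF, BMP, hedgehog and Notch signals 19 of 38 genes were above 0 and 19 below. Of 42 Wnt pathway genes 4 were lower and none higher, namely Lef1, the inhibitor Sfrp4 at 0.0846 against 1.58 FPKM, the receptor Fzd4 at 1.47 against 4.32 FPKM and the stem cell gene Lgr6 at 10.6 against 24.9 FPKM. The other follicle stem cell genes were closer to 0. Lgr5 was 7.0 against 7.04 FPKM, Sox9 21.3 against 17.7 FPKM, Cd34 68.4 against 112 FPKM and Krt15 2232 against 2962 FPKM, and 1 of 19 was counted. Of 19 dermal papilla genes 2 were lower, Lef1 and the proteoglycan gene Vcan at 2.32 against 7.54 FPKM (-1.36), and 16 were below 0.

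Pigment genes were lower in part as well. Of 15 melanocyte genes 5 were lower, with none higher (median -0.66). The melanin enzyme genes Tyrp1 and Tyr were 2.48 against 11.8 FPKM (-1.88) and 0.209 against 1.52 FPKM (-1.06). The channel gene Trpm1 was 1.53 against 5.86 FPKM, and the receptors Kit and Ednrb were 1.45 against 4.46 FPKM and 0.718 against 2.6 FPKM. Melanocyte genes shared with other cells, Gpnmb and Rab38, were 16.9 against 13.6 FPKM and 28.7 against 20.6 FPKM. In a bulk sample, fewer cells of a type and less RNA per cell cannot be told apart, and this holds for each cell type list here.

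Collagen and microfibril genes were mostly below 0, and some were lower. Of 30 collagen genes 5 were lower, none higher and 24 below 0 (median -0.56). The main fibrillar chains lay just short of the size counted, with Col1a1 at 69.7 against 123 FPKM (-0.81), Col1a2 at 91.5 against 166 FPKM (-0.86) and Col5a2 at 19.5 against 35.2 FPKM (-0.82). Those counted were Col14a1, a collagen on the surface of fibrils, at 0.871 against 7.32 FPKM (-2.15), and the basement membrane genes Col4a1 and Col4a2 at 22.1 against 49.1 FPKM and 6.69 against 16.1 FPKM. The others were Col15a1 at 20.5 against 43.7 FPKM and Col5a3 at 2.08 against 5.3 FPKM. A collagen made by keratinocytes was on the other side of 0, namely Col17a1 of the hemidesmosome, at 459 against 333 FPKM (0.46). Of 25 collagen folding and crosslinking enzymes none was counted (median -0.18), with the chaperone Serpinh1 at 18.5 against 30.5 FPKM and lysyl oxidase (Lox) at 2.86 against 4.36 FPKM.

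Elastic fibres, proteoglycans and matricellular proteins had a similar spread. Of 17 elastic fibre genes 3 were lower, Mfap5 at 2.24 against 9.0 FPKM (-1.62), Mfap4 at 3.33 against 10.3 FPKM and fibrillin 1 (Fbn1) at 9.11 against 22.2 FPKM (-1.2), and elastin (Eln) was 5.85 against 9.13 FPKM (-0.56). Of 28 proteoglycan genes 4 were lower, among them Gpc3 at 2.31 against 6.57 FPKM and osteoglycin (Ogn) at 4.68 against 11.4 FPKM. Decorin (Dcn), the most abundant, was 207 against 316 FPKM (-0.61). Of 23 matricellular genes 4 were lower, among them fibronectin (Fn1) at 23.5 against 48.2 FPKM and nidogen (Nid1) at 4.22 against 10.3 FPKM, and Thbs1, a thrombospondin that activates TGF-beta, was the 1 higher, at 29.2 against 13 FPKM (1.11). Its relative Thbs2 was 25.3 against 16.6 FPKM (0.58).

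Fibroblast markers were nearly all below 0. Of 25 markers 4 were lower, none higher and 23 below 0 (median -0.48). Those lower were Mfap5, the leptin receptor Lepr at 5.14 against 13.1 FPKM, dermatopontin (Dpt) at 19.1 against 41.2 FPKM and the surface protease Fap at 2.93 against 6.93 FPKM (-1.01). The general markers Pdgfrb, Thy1 and Vim were 3.14 against 3.82 FPKM, 23.2 against 29.6 FPKM and 126 against 183 FPKM, and Pdgfra, in a row shared with a microRNA gene, was 5.24 against 10.5 FPKM. The chemokine Cxcl12 was on the other side, at 21.4 against 17.2 FPKM. Of 21 metalloproteinase and inhibitor genes Mmp13 was the 1 counted, and Mmp2, the gelatinase of fibroblasts, was 38.3 against 29.9 FPKM.

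**Figure D3:**
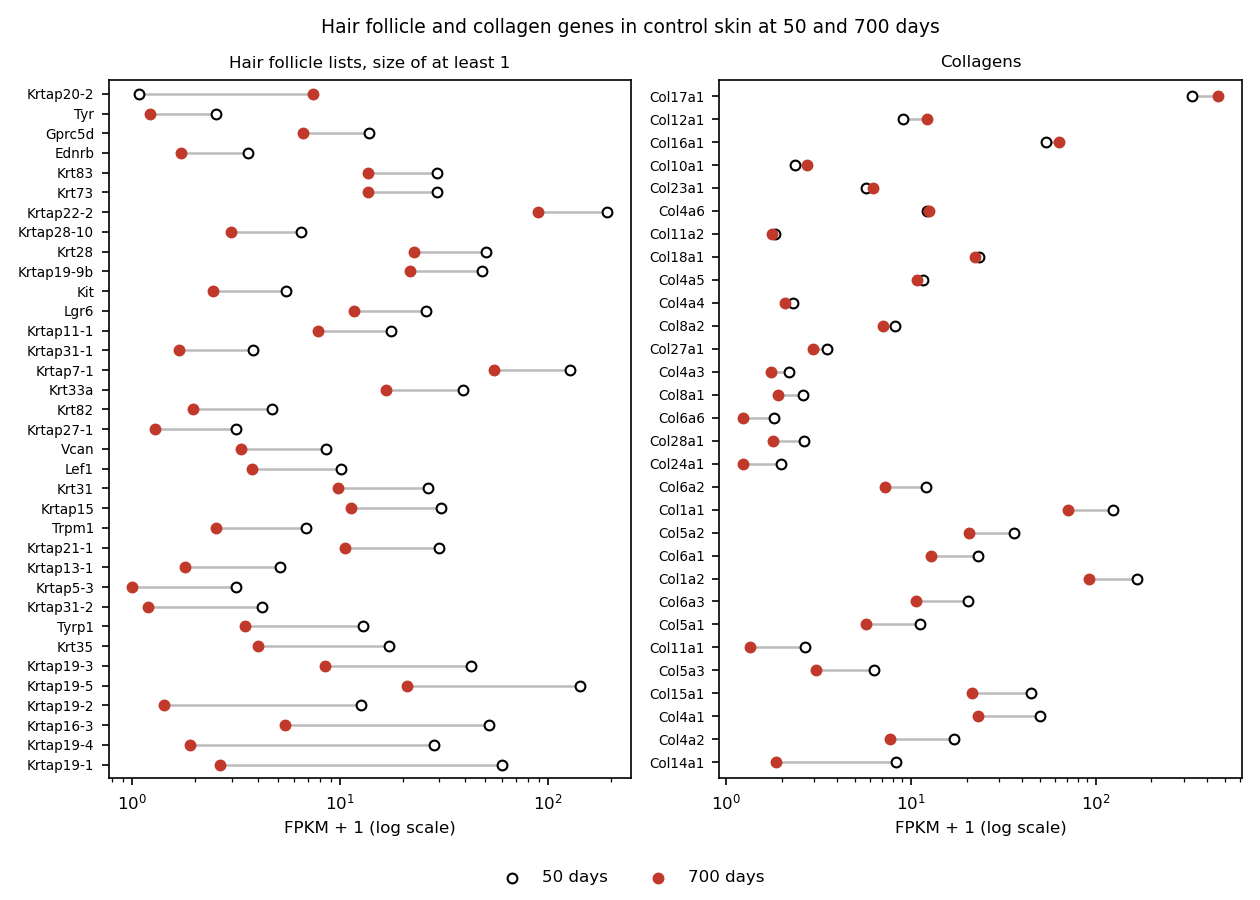
FPKM + 1 (log scale) in control skin at 50 days (open circles) and 700 days (filled circles), for the hair follicle list members with a ratio of at least 1 in size (left) and all 30 collagen genes measured (right), ordered by ratio. At left all genes except Krtap20-2 lie lower at 700 days, and at right 24 of 30 do.

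Fat cell genes were lower in part, while only 1 lipid synthesis gene was counted. Of 22 fat cell identity and hormone genes 11 were lower, with none higher (median -0.97). Car3, an abundant carbonic anhydrase of fat cells, was 68.7 against 437 FPKM (-2.65), and the hormones resistin (Retn) and adiponectin (Adipoq) were 12.2 against 65.4 FPKM and 9.73 against 41.6 FPKM. The lower genes also included Plin1, which coats fat droplets, at 4.71 against 19.3 FPKM (-1.83), leptin (Lep) at 0.98 against 4.45 FPKM and adipsin (Cfd) at 70.4 against 216 FPKM. Pparg, the master regulator of fat cells, was 3.28 against 6.98 FPKM (-0.90). Lipoprotein lipase (Lpl) and the fatty acid carrier Fabp4 were lower at 10.2 against 32.2 FPKM and 91.2 against 226 FPKM, while Fabp5, the keratinocyte form, was 88.1 against 63.3 FPKM (0.47). Of 34 sterol and fatty acid synthesis genes only Thrsp was counted, lower at 5.21 against 21.4 FPKM (-1.85), and 21 were above 0 (median 0.06). Fasn and Scd1 were 57 against 67.7 FPKM and 168 against 185 FPKM, and the sterol enzyme Cyp51 50.5 against 33.8 FPKM (0.57). Of 17 sebaceous gland genes none was counted.

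Skeletal muscle genes had the lowest ratios of all lists. Of 29 contractile genes 25 were lower (median -3.35) and of 28 calcium handling and energy genes 26 (median -3.0). The fast-fibre myosin light chain Mylpf was 45.5 against 1499 FPKM (-5.01), the fast myosin Myh4 3.13 against 153 FPKM (-5.22) and the calcium pump Atp2a1 3.99 against 187 FPKM (-5.24). Genes of slow fibres were low in both columns, with Tnni1 at 0.189 against 1.09 FPKM and Myl2 at 0.449 against 0.183 FPKM. Of 12 regulatory genes 8 were lower, with myostatin (Mstn) at 0.149 against 11.4 FPKM. Summed over the contractile list the level was 4622 FPKM at 50 days and 412 at 700 days. In the 100- and 300-day control columns, which carry the other title prefix, it was 22066 and 18189 FPKM. The 50-day column thus lay between the others. The adipocyte list had the same order, with 1028, 372, 5550.1 and 4035 FPKM at 50, 700, 100 and 300 days. How deep below the dermis each sample reached is not in the labels, and its part in the muscle and fat results was not tested.

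The start regions of 3 lower muscle genes are shown because they hold the letters CAGCTG, a form of the E-box bound by MyoD family factors. Among genes with a window, the letters were found for 21 of 40 lower muscle genes (52.5%) and 90 of 279 lower genes (32.3%). They were found for 6 of 48 higher genes (12.5%) and 1719 of 9285 of all genes tested (18.5%). A gene held the letters where any of its windows did. The motif reads the same on both strands and is in capitals below. The windows are those of Mylpf (chr7:127211358-127211657, plus strand), Atp2a1 (chr7:126463024-126463323, minus strand) and Myh4 (chr11:67237562-67237861, plus strand) in GRCm38.p6.
Mylpf: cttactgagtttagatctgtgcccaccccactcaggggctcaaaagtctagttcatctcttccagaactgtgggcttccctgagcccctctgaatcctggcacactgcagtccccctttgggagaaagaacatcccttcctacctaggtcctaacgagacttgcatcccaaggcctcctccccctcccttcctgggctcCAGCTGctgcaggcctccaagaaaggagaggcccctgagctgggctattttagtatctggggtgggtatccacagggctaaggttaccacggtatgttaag
Atp2a1: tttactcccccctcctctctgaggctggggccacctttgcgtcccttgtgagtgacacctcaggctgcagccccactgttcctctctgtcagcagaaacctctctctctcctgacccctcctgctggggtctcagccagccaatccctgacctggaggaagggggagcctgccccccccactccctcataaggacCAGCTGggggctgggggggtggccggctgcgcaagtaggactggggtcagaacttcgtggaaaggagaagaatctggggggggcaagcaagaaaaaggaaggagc
Myh4: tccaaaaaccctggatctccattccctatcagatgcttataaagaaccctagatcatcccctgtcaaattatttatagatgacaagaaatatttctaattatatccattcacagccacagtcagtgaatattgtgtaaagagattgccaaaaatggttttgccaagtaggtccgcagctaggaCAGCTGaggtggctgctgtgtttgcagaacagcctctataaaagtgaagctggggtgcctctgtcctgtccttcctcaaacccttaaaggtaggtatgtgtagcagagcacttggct
The motif starts 51, 55 and 67 bases before the start of transcription in Mylpf, Atp2a1 and Myh4.

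Muscle of vessel and hair walls did not follow skeletal muscle. Of 18 smooth muscle and pericyte genes only desmin (Des), shared with skeletal muscle, was counted, at 9.86 against 57.6 FPKM (-2.43), and the median was -0.11. The smooth muscle actin Acta2 was 27.4 against 28.3 FPKM and the smooth muscle myosin Myh11 13.9 against 11.3 FPKM. Of 28 endothelial genes 26 were below 0 (median -0.44). The junction gene Cdh5 was 2.51 against 5.53 FPKM (-0.90) and Pecam1 13.8 against 18.6 FPKM (-0.40). Only Cd36, also a fat cell gene, was counted, at 26.5 against 55.5 FPKM (-1.04). Summed over the endothelial list, control skin held 154, 93.2, 748 and 564 FPKM at 50, 700, 100 and 300 days. How deep each sample reached is not in the labels, and its part in the vessel results was not tested.

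**Figure D4:**
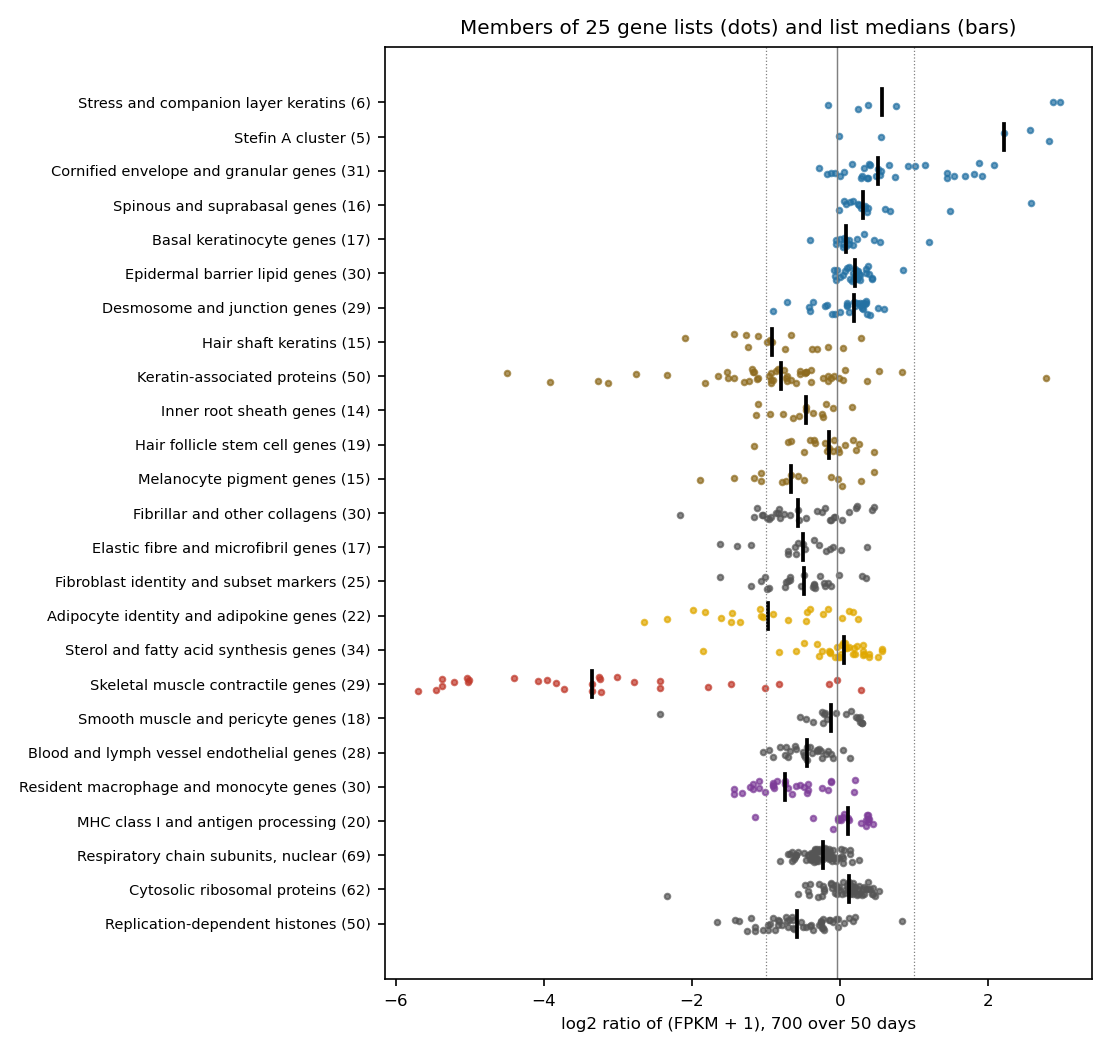
Log2 ratios of (FPKM + 1), 700 over 50 days (x axis), for the members (dots) of 25 gene lists, with the number of members in brackets and black bars for the list medians. The grey line marks the median of all genes and the dotted lines a ratio of 1 in size. Skeletal muscle stands far to the left at -3.35, and the medians of the epidermal lists drawn lie to the right of the grey line. Among epidermal lists not drawn, those of S100, sebaceous gland and simple epithelial genes had medians of -0.11, -0.26 and -0.52, and the others lay above 0. The dots are not replicates of a condition.

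Macrophage genes lay below 0 almost throughout. Of 30 measured, 9 were lower, none higher and 28 below 0 (median -0.75). Lower were the folate receptor Folr2 at 0.786 against 3.83 FPKM, the platelet factor gene Pf4 at 6.45 against 19.1 FPKM, lysozyme (Lyz2) at 25.2 against 55.1 FPKM and the complement genes C1qa and C1qc at 3.89 against 9.47 FPKM and 2.9 against 7.74 FPKM. The growth factor receptor Csf1r was 7.3 against 14.6 FPKM (-0.91) and Adgre1, which encodes F4/80, 2.7 against 5.91 FPKM (-0.90). Cd68 and Itgax, shared with other myeloid cells, were near a ratio of 0, at 2.61 against 2.91 FPKM and 4.01 against 3.36 FPKM. The scavenger receptor gene Cd163, a marker of resident macrophages, was 3.44 against 9.31 FPKM (-1.21).

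Langerhans and antigen presentation genes were not lower to that degree. The Langerhans cell gene Cd207 was 14.2 against 14.1 FPKM (0.01). The MHC class II genes H2-Aa, H2-Ab1 and H2-Eb1 had ratios of -0.46, -0.51 and -0.54, and none of 15 genes of that list was counted. Of 20 MHC class I and processing genes 15 were above 0 (median 0.12), with H2-K1 at 419.7 against 328 FPKM and the transporter Tap1 at 53.8 against 41.2 FPKM. Only Cd1d1, which presents lipids, was counted there, lower at 1.73 against 5.04 FPKM (-1.15).

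Some T cell receptor genes of different lineages had ratios of opposite sign. Of 23 T and NK cell genes 1 was higher (Trbc1), 1 lower (Trdc) and 15 below 0 (median -0.24). Mouse epidermis holds dendritic epidermal T cells with an invariant gamma-delta receptor built from the segments Tcrg-V5 and Trdv4. Tcrg-V5 was 6.62 against 21.8 FPKM (-1.58), Trdv4 4.11 against 7.54 FPKM (-0.74) and the delta constant region Trdc 0.988 against 3.66 FPKM (-1.23). The chemokine Xcl1, made by these cells, was 2.06 against 7.32 FPKM (-1.44). In a list of 12 such genes, written after values had been seen, 3 were lower and 11 below 0 (median -0.74). The constant regions of the alpha-beta receptor lay on the other side, with Trbc1 at 10.6 against 4.41 FPKM (1.1), Trbc2 at 19.3 against 13.7 FPKM and Trac at 1.98 against 0.705 FPKM (0.81). Trbc1 and Trbc2 are near copies. The shared chains Cd3e and Cd3g were 2.71 against 4.51 FPKM and 9.61 against 16.8 FPKM. The annotated span of Tcrg-V5 overlaps a predicted antisense gene.

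**Figure D5:**
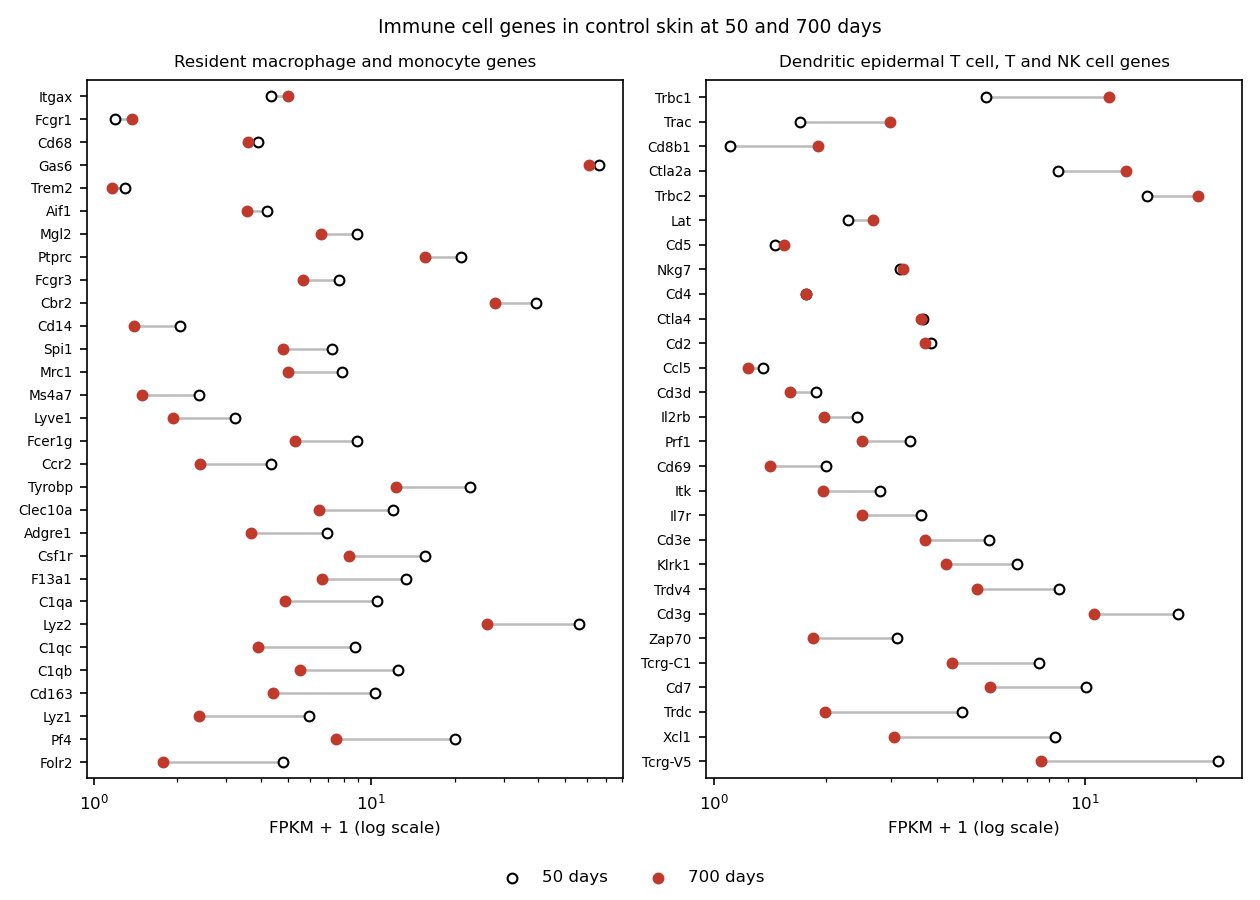
FPKM + 1 (log scale) in control skin at 50 days (open circles) and 700 days (filled circles), for 30 macrophage and monocyte genes (left) and the dendritic epidermal T cell, T and NK cell genes (right), ordered by ratio. At left 28 of 30 genes lie lower at 700 days, and at right the alpha-beta receptor genes Trbc1 and Trac stand at the top and the gamma-delta gene Tcrg-V5 at the bottom.

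The other immune lists held few counted genes, apart from complement. Of 22 B and plasma cell genes the light chain Igkc was higher at 2.38 against 0.294 FPKM. The heavy chain Ighm was lower at 2.41 against 8.91 FPKM, and the defining gene Cd79a was 0.0926 against 0.0622 FPKM. Of the 22, 5 were listed at 0 at 50 or 700 days, having passed the filter on the mean of all 6 groups. Of 34 interferon response genes only Ifi27l2a was counted, lower at 29.4 against 71.5 FPKM (-1.25), and Isg15 was 3.61 against 1.97 FPKM and Ifit3 0.974 against 2.24 FPKM. Of 32 chemokine and receptor genes 3 were lower and none higher, namely Xcl1, Pf4 and Ccl9 at 3.21 against 10.3 FPKM, and the keratinocyte chemokine Ccl27a was 428 against 824 FPKM (-0.95). Of 20 complement genes 4 were lower, namely C1qa, C1qb, C1qc and Cfd, and 16 were below 0 (median -0.21). C7, a part of the membrane attack complex, was the 1 higher, at 11.3 against 0.24 FPKM (3.32), while C3 was 55.1 against 90.6 FPKM and C4b 25.6 against 16.5 FPKM. Of 10 mast cell genes only Kit was counted, and the protease Cpa3 was 1.67 against 1.86 FPKM.

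Respiratory chain and TCA cycle genes lay mostly below 0 by small amounts. Of 69 nuclear respiratory chain subunits none was counted and 60 were below 0 (median -0.23), with Cox6c at 148 against 237 FPKM and Sdha at 73.1 against 66.6 FPKM. Of 21 TCA cycle enzymes 18 were below 0 (median -0.18). The skeletal muscle lists were lower beside them (medians -3.35 and -3.0), and their part in these values was not tested. Of 25 glycolysis and glucose uptake genes 4 were lower and 13 above 0. The lower ones included the muscle forms Eno3 at 6.3 against 177 FPKM and Pgam2 at 2.3 against 28.3 FPKM, while the general forms were not counted, with Eno1 at 133 against 92.8 FPKM and Pgam1 at 5.0 against 2.85 FPKM. Pdk4, a kinase that spares glucose, was lower at 2.22 against 10.9 FPKM (-1.88).

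Of the antioxidant genes 2 of 39 were lower. Gpx3, the secreted glutathione peroxidase, was 5.96 against 28.8 FPKM (-2.1) and Gpx7 1.15 against 4.35 FPKM (-1.31). The superoxide dismutases Sod1, Sod2 and Sod3 were 49.3 against 71.4 FPKM, 11.5 against 12.7 FPKM and 4.69 against 4.08 FPKM. None of 23 genes of the integrated and unfolded protein stress responses was counted. Among 24 heat shock genes only the muscle gene Hspb7 was, lower at 0.472 against 3.72 FPKM.

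Histone and ribosomal genes lay on opposite sides of 0. Of 50 replication-dependent histone genes, which are used in S phase, 8 were lower and 45 below 0 (median -0.57), with Hist1h4f at 18 against 49.8 FPKM and Hist1h1a at 20.3 against 43 FPKM. Each library was made with 1 of 2 ribosomal RNA depletion kits, and the labels do not say which. The part of the kit in these values was not tested. Of 62 ribosomal protein genes 40 were above 0 (median 0.13), and only the muscle paralogue Rpl3l was counted, lower at 0.326 against 5.72 FPKM. Of 17 small non-coding RNA genes 3 were higher and 2 lower. Rprl3 was 57.3 against 0.123 FPKM (5.7), and Rpph1, the RNA of ribonuclease P, was 17738 against 39489 FPKM (-1.15).

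Among 19 clock genes Bhlhe40 was the 1 counted, higher at 18 against 5.0 FPKM (1.66). The output gene Dbp was 22.9 against 11.5 FPKM (0.93) and Per3 12.3 against 6.77 FPKM (0.78), while Npas2 was 2.12 against 5.17 FPKM (-0.98) and Arntl 13.4 against 14.3 FPKM. The labels give no time of day.

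Simple epithelial and secretory gland genes were lower in part. Of 20 such genes 7 were lower, with none higher (median -0.52). Krt8, Krt18 and Krt19, the keratins of simple epithelia, were 0.247 against 4.82 FPKM, 0.271 against 5.58 FPKM and 0.261 against 11.9 FPKM, and the secreted proteins Ltf and Wfdc2 had ratios of -3.58 and -2.56. The casein gene Csn3 was 0.074 against 1.47 FPKM (-1.2). The keratin Krt23 and the surface gene Epcam were near a ratio of 0, at 176 against 168 FPKM and 64.2 against 56.7 FPKM. The oestrogen and progesterone receptor genes Esr1 and Pgr were 2.85 against 7.01 FPKM (-1.06) and 0.0914 against 0.57 FPKM (-0.52). They stood beside the sex-linked transcripts given above, whose part in this was not tested.

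Some of the higher genes stood outside every list. Atp12a, a proton and potassium pump of surface epithelia, was 14.6 against 2.22 FPKM (2.27), and the secreted carbonic anhydrase Car6 was 55.7 against 18.2 FPKM (1.56). Ehf, an epithelial transcription factor, was 22.2 against 9.48 FPKM (1.14), and Egln3, an oxygen-sensing hydroxylase that is itself induced by low oxygen, was 21.6 against 8.0 FPKM (1.32). Pinlyp was 93.6 against 35.2 FPKM (1.39). By chromosome, the higher genes were most numerous on chromosome 3, where the Lce and Sprr genes lie, with 13 of 612 genes measured, and on chromosome 15, which holds the type II keratins and the Ly6 family, with 8 of 477.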

How the data were processed

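Whole skin RNA was sequenced by the submitters after ribosomal RNA depletion, with directional libraries and 75-cycle single-end reads on an Illumina NextSeq instrument, per the labels' protocols. The deposited table gives FPKM with 1 value per gene and group. HISAT2, Cufflinks, Cuffdiff and the build mm10 are named, per the submitters' processing notes, without versions. How the authors combined the samples of a group, and how reads shared by near copies were handled, are not given here in the sources used. Depth is unknown.

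From these FPKM the log2 ratio of (FPKM + 1) was taken for each row that names 1 gene. Genes had to average 1 FPKM or more across the 6 groups, and a ratio of at least 1 in size was counted. The plan was a limma fit where samples had values of their own. With 1 value per group the planned fallback was used, without a test. Rows with several symbols (1057 of 46744) were set aside, as were 137 rows of 5S and 5.8S ribosomal RNA genes, the latter after their values were seen. Positions and classes came from GENCODE M21, which matched 98.4% of symbols. Start regions came from RefSeq (GRCm38.p6), matched by symbol.

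The comparison and its 78 gene lists were chosen with earlier results of these data known, and 3 further lists were written after values were seen. Faulty name patterns in 2 lists were corrected. Named genes were, per list, those of counted size (the 8 largest where more) and the 4 of highest mean, the 25 highest and 25 lowest genes of at least 5 FPKM, genes listed at 0 in 1 column and at least 5 FPKM in the other, and Sod2, Junb, Igf1, Cdkn2a, Cdkn2b and Mtap. Other named genes were chosen after their values were seen, and a few genes are not reported here. The counting step was tested on simulated data. Python 3.11.15, pandas 2.3.3, numpy 2.4.6 and matplotlib 3.10.9 were used. The alternatives tried were other pseudocounts, filters and scalings and other sets of rows.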

Additional observations from a re-analysis of the deposited data

Results flagged for a closer look

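Rows that name several genes were left out of the counts, and 15 of the 808 such rows past the filter were higher at 700 days. Beside predicted genes and microRNAs, 2 of these rows held a protein-coding gene with a log2 ratio of at least 2 and at least 5 FPKM at 700 days. The row of Rnf225, a ring finger gene, and Gm26325 was 148 FPKM at 700 days and 26.1 FPKM at 50 days, a log2 ratio of 2.46. The row of Ampd3, an AMP deaminase, and AC122844.1 was 28.3 and 6.09 FPKM, a ratio of 2.04. Both were singled out because they belong to rows that no comparison above used. Which gene of a row gave the signal cannot be told apart.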

How the results depend on the processing

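No paired analysis was possible because each group has 1 value, and for the same reason no sample could be left out in turn. Of 71 higher and 394 lower genes, a pseudocount of 0.1 gave 135 and 769. Scaling the columns to equal totals gave 113 higher and 464 lower, and scaling to a common median 81 and 365. The other settings gave 48 to 88 higher and 324 to 538 lower genes. The median of the Y-linked list went from 4.50 to 6.49 with a pseudocount of 0.1, 5.32 with 0.5, 2.04 with no filter and 5.35 with equal totals. The mast cell median went from 0.07 to -0.41 with the filter set at 5 FPKM. The cause was not tested. All other list medians stayed within the spread of their members, though small ones took the other sign in some settings, such as T and NK cell genes (-0.24, and 0.20 with that filter) and senescence secretory factors (0.08, and as low as -0.06). No named gene of counted size changed sign in the 13 alternatives. At most 7 of 268 named genes lost the size counted, with a common median (Fn1, Cd36, Fap, Col5a3 and Col15a1 among them), and at most 12 gained it, with a pseudocount of 0.1 (Igf1, Trac and Pparg among them). Precision is limited by 1 value per group and unknown depth.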

Other observations

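Imprinted genes, which are expressed from 1 parental copy and are most active in growing tissue, lay mostly below 0. Of 16 measured as single rows, 2 (Peg3 and Nnat) were lower and 15 below 0 (median -0.16), with the zinc finger gene Peg3 at 1.45 against 11.3 FPKM (-2.33). Others share a row with a small RNA gene and were outside the counts. The row of H19 and Mir675 was 0.973 against 100.4 FPKM, a log2 ratio of -5.68. Rows of the Meg3 region showed the same direction, with Meg3 at 1.74 against 6.49 FPKM and Rian at 3.53 against 15.5 FPKM. In control skin at 100 and 300 days these rows and that of H19 lay above their 50-day values. The H19 row was 212 and 364 FPKM, the Meg3 row 10.1 and 9.49 FPKM and the Rian row 43.2 and 33.6 FPKM. The skeletal muscle contractile sum also lay above its 50-day value in those columns and below it at 700 days. The part of muscle in the values of these imprinted genes was not tested. The Hox genes, which keep positional identity, held no counted gene among 17.

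Detoxifying enzymes, from a list written after values were seen, went both ways, with 4 higher and 4 lower of 20. The cytochrome gene Cyp2g1 was 0.161 against 34.2 FPKM (-4.92), Akr1c18, which inactivates progesterone, 1.25 against 22.9 FPKM (-3.41) and the carboxylesterase gene Ces1d 10.4 against 28.7 FPKM (-1.37). On the other side the glutathione transferase gene Mgst2 was 16.3 against 6.55 FPKM (1.19). Hamp2, a hepcidin gene, was 0.67 against 16.9 FPKM (-3.42). Hsd3b6, a steroid dehydrogenase gene, was 0.494 against 2.73 FPKM (-1.32). These values stand beside the sex-linked transcripts, whose part in them was not tested.

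The row of Mir17hg, the host transcript of a microRNA cluster tied to cell growth, also holds its microRNA genes. It was 62.5 against 10.9 FPKM, a log2 ratio of 2.42. The long row prevents a value for any 1 of them.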
